A study of Mus musculus with 5 samples.

Results

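The proximal tubule takes glucose and lactate back from the filtrate through membrane transporters, and 7 genes for such carriers were followed here across the cell classes and regions of the mouse kidney: Slc5a1, Slc5a2, Slc5a8, Slc5a12, Slc2a1, Slc2a2 and Slc16a7. They were taken by gene symbol from the 16934 symbols listed over 5 libraries, and all 7 were listed in every library. All mice were wild type, of a strain written C56BL/6N in the labels, and gave 1 library of microdissected outer medulla, 1 of inner medulla, 1 of cortex and 2 of whole kidney. No group was treated or carried an allele, and the labels give neither age nor sex nor which animals went into which library. Tissue was dissociated in the cold with a bacterial protease and the cells were kept in methanol. They were then run through Drop-seq, where droplets pair single cells with barcoded beads, and mRNA molecules are counted by their unique molecular identifiers (UMIs).

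Glucose is pulled into proximal cells across the brush border together with sodium. Slc5a2 encodes SGLT2, the high-capacity cotransporter known from the early proximal tubule, and Slc5a1 encodes SGLT1, a high-affinity cotransporter known from the late proximal tubule and the gut. Glucose then leaves the cell down its gradient through facilitative carriers, GLUT2 (Slc2a2) on the basolateral side of proximal cells and GLUT1 (Slc2a1) in many cell types. Lactate, pyruvate and ketone bodies are taken up with sodium by SMCT2 (Slc5a12, low affinity) and SMCT1 (Slc5a8, high affinity), or move with a proton through carriers such as MCT2 (Slc16a7).

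Barcodes with at least 200 detected genes were taken as cells, which left 2418 in outer medulla, 896 in inner medulla, 3071 in cortex, 3304 in whole kidney 2 and 2408 in whole kidney 1. Libraries had a median of 440 to 517 UMIs per cell. Cells were clustered with the 7 members removed from the genes used, so that the members did not draw the classes, and clusters were named from marker genes. The early proximal tubule-like class held 4489 cells and the late proximal tubule-like class 3822. Of 12 early markers 9 were higher in the early class, and all 14 late markers were lower in it. The exceptions were Slc22a12, Slc13a3 and Pck1, with mean levels of 404, 165 and 525 UMIs per 1000000 of the class sum (CPM) in early cells, against 1020, 322 and 557 CPM in late cells. Of 6 markers of the middle part, 3 were higher in each class, and a finer clustering, described further on, split off a middle class. A cluster of 466 cells led by H2-Aa and Cd74 could not be named and entered no comparison.

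Expression along the proximal tubule was compared first, with UMIs summed over the early and the late cells of each library and tested by edgeR's quasi-likelihood test with the library as a block. Of the 7 members, 5 passed the filter on low counts and all 5 differed: Slc5a2, Slc5a12 and Slc2a2 were higher in early cells, and Slc5a8 and Slc5a1 were lower. Genes other than the members had drawn the classes, and 36.2% of the 6280 genes tested differed as well, with 18.2% of those tested higher and 18.0% lower in early cells. The labels do not name animals, so the p-values measure only the spread between these 5 libraries. The fit drew the spread of all genes from 1 shared trend, which makes adjusted p-values very small, and the values of each library are therefore given with them. Scaling by total UMIs alone in place of TMM moved fold changes up by about 0.118 on the log2 scale and the calls to 1502 higher and 844 lower, against 1140 higher and 1131 lower, and turned no member round.

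Slc5a2 stood at 998 CPM in early cells of outer medulla, 448 in inner medulla, 925 in cortex, 882 in whole kidney 2 and 941 in whole kidney 1, against 53.1, 28.0, 87.7, 75.6 and 72.1 CPM in late cells of the same libraries. The groups did not overlap, and the lowest early value, that of inner medulla, rested on 8 UMIs from 29 cells. The early level was 11.8-fold higher in the fit (log2 fold change 3.56 ± 0.0951, SE, n = 5 libraries, adjusted p = 7.49e-296). Slc5a12 followed the same order, with 1030, 1400, 1240, 1170 and 1230 CPM in early cells and 55.9, 28.0, 102, 105 and 114 CPM in late cells. Its early level was 11.5-fold higher (3.52 ± 0.0889, SE, on the log2 scale, adjusted p given by edgeR as 0). The sodium-coupled glucose carrier and the low-affinity lactate carrier thus differed in the same direction and by a similar size. Both differences were larger where the middle cells were split off, at 4.46 and 4.44 on the log2 scale. They reached 10.8 and 11.2 after an estimated free RNA profile had been subtracted from each sum. That subtraction, cut off at 0, left late counts at or near 0, so these last 2 values do not measure the size of the difference.

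Slc2a2, the exit path for glucose, was shared more evenly. It stood at 172, 112, 206, 227 and 251 CPM in early cells of outer medulla, inner medulla, cortex, whole kidney 2 and whole kidney 1, against 97.8, 112, 87.7, 77.2 and 68.7 CPM in late cells. Early cells were higher in 4 libraries and level with late cells in inner medulla, where 2 and 4 UMIs were counted. The early level was 2.43-fold higher (1.28 ± 0.115, SE, on the log2 scale, edgeR adjusted p = 3.34e-27). With free RNA subtracted the log2 fold change was 1.53.

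Slc5a8, the high-affinity sodium-coupled lactate carrier, ran the other way. Early cells held 12.9, 56.0, 23.0, 9.13 and 19.3 CPM in the same order of libraries, and late cells 143, 391, 177, 146 and 158 CPM. The groups did not overlap, and the early level was 10.5-fold lower (-3.40 ± 0.177, SE, on the log2 scale, edgeR adjusted p = 1.37e-79). With free RNA subtracted the log2 fold change was -6.28, a size that rests on early counts left at a few UMIs or 0. Slc5a1 was a low gene in both classes, with 7.39, 0, 1.92, 1.66 and 0 CPM in early cells, or 8 UMIs in all, and 18.2, 28.0, 33.4, 21.5 and 16.0 CPM in late cells, or 87 UMIs. Late cells were higher in every library, and the early level was 10-fold lower in the fit (-3.32 ± 0.451, SE, on the log2 scale, edgeR adjusted p = 2.63e-12). Without the outer medulla library, which held 4 of the 8 early UMIs, the log2 fold change was -4.12, and with free RNA subtracted the gene no longer passed the filter. The 10 thick ascending limb markers, whose class held most Slc5a1 per UMI, summed to 383 to 729 CPM in early and 475 to 737 CPM in late cells, with 0 to 6 of them at 0 in a library, and their part in this result was not tested.

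**Figure D1:**
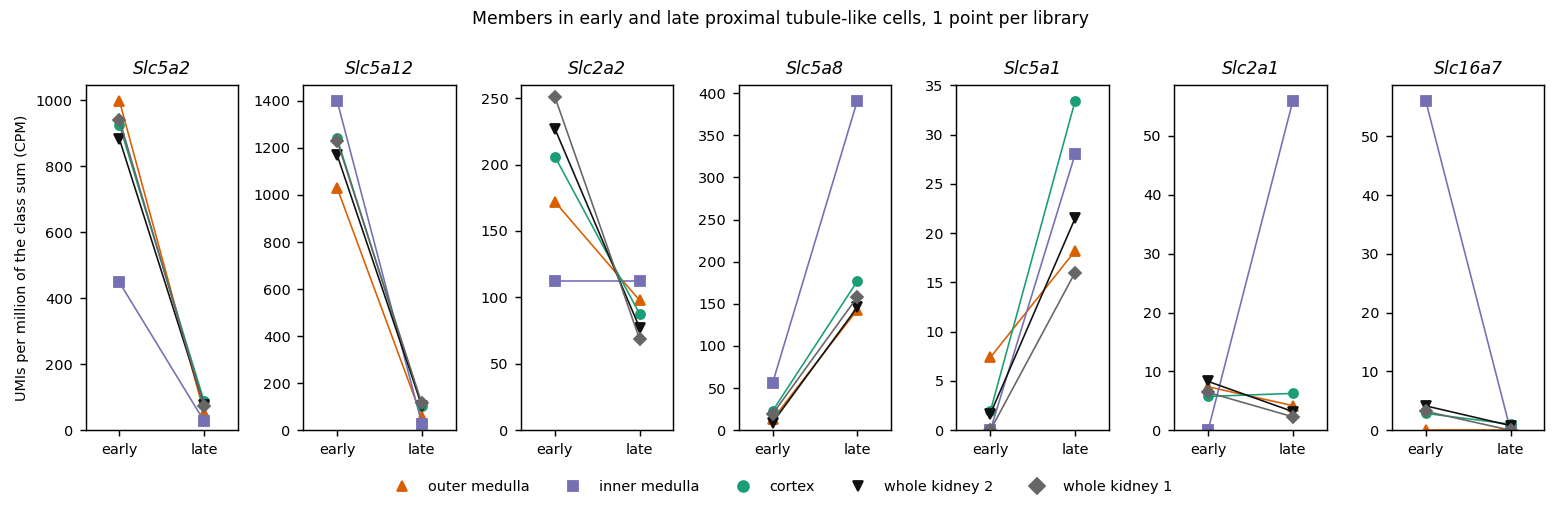
Level of each of the 7 members in CPM (linear axes that differ between panels) in early and in late proximal tubule-like cells. Each line joins the 2 sums of 1 library. Slc5a2 and Slc5a12 fall steeply between early and late cells in all 5 libraries, Slc2a2 falls in 4, Slc5a8 and Slc5a1 stand higher in late cells, and Slc2a1 and Slc16a7 rest on few UMIs, with inner medulla points of 1 or 2 UMIs.

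Slc2a1 and Slc16a7 did not pass the filter. Slc2a1 gave 24 UMIs in all early cells and 17 in all late cells, and Slc16a7 gave 11 and 2. With no filter, neither was called by edgeR, with log2 fold changes of 0.46 ± 0.533 (SE, adjusted p = 0.713) for Slc2a1 and 2.15 ± 1.26 (SE, adjusted p = 0.295) for Slc16a7. At these counts a difference between early and late cells was not detectable for the general glucose carrier or for MCT2.

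The share of cells with a UMI showed the same order but depends on depth. Slc5a2 was seen in 39.0% of early cells of outer medulla, 27.6% of inner medulla, 39.9% of cortex, 40.0% of whole kidney 2 and 39.6% of whole kidney 1, against 4.19%, 1.67%, 6.77%, 6.58% and 5.83% of late cells. After each cell had been thinned to 300 UMIs, with shallower cells left out, the shares in cortex were 23.6% of 1162 early cells and 2.78% of 862 late cells. The late share was close to that of connecting tubule-like cells, which do not take up glucose this way and 5.43% of 534 of which held a UMI at a median depth of 412 to 492 UMIs over 4 libraries, against 520 to 601 UMIs in late cells of those libraries. In cortex 3.59% of 167 thinned connecting tubule-like cells held a UMI. The thinned late share of cortex was no higher than this one, and whether the late UMIs are expression of Slc5a2 was not tested. Slc5a8 was seen in 12.6% of all late cells and 0.958% of all early cells, against 1.5% of connecting tubule-like cells.

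Within early cells the brush border carriers were often seen together. Slc5a2 was detected in 1779 and Slc5a12 in 1996 of 4489 early cells, and both in 1049 cells, whose median depth was 1015 UMIs against 495 UMIs for the class. Slc5a2 and Slc2a2, which take glucose in and let it out, were both detected in 351 early cells. In late cells Slc5a8 and Slc5a1 were detected in 483 and 80 of 3822 cells and both in 21 cells, with a median depth of 1658 UMIs against 565 UMIs for the class. Cells of greater depth show more genes of any kind, so these counts describe the cells and do not measure a link between genes.

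At a finer clustering the proximal cells fell into early, middle and late classes of 4344, 1179 and 2718 cells. Clusters were named by the highest of their early, middle and late marker scores, and some were near a tie. The middle class scored 0.633 for middle and 0.564 for late markers. An early cluster of 861 cells, led among others by the middle marker Mdk, scored -0.036 for early and -0.08 for middle markers. It held 527 CPM of Slc5a2 and 652 CPM of Slc5a12, the lowest of the early clusters. The glucose cotransporter Slc5a2 stepped down along them, with 917, 188 and 41.6 CPM in early, middle and late cells of cortex and 999, 120 and 31.6 CPM in those of outer medulla. The whole kidney libraries showed the same order, with 883, 243 and 38.1 CPM in whole kidney 2 and 934, 257 and 42.7 CPM in whole kidney 1. Middle cells lay between the others in each of these 4 libraries. The inner medulla library held only 9 middle cells and is left out here.

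Slc5a12 had the same order in these 4 libraries, with 1020 to 1240 CPM in early cells, 130 to 374 CPM in middle cells and 35.6 to 68.3 CPM in late cells. Slc5a8 stood at 10.9 to 35.1 CPM in early, 87.6 to 170 CPM in middle and 154 to 167 CPM in late cells. In cortex its middle level of 170 CPM was as high as its late level of 167 CPM, and in the other libraries it lay between the early and the late level. Slc2a2 stood at 175 to 255, 97.4 to 164 and 44.1 to 94.1 CPM in early, middle and late cells. Slc5a1 stood at 1.63 to 7.53, 5.84 to 20.8 and 17.1 to 38.6 CPM, and its middle values rested on 15 UMIs in all, with intervals that overlap those of late cells. The 2 sodium-coupled lactate carriers thus crossed between the middle class, with 263 CPM of Slc5a12 and 121 CPM of Slc5a8 over all libraries, and the late class, with 50.6 and 163 CPM.

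**Figure D2:**
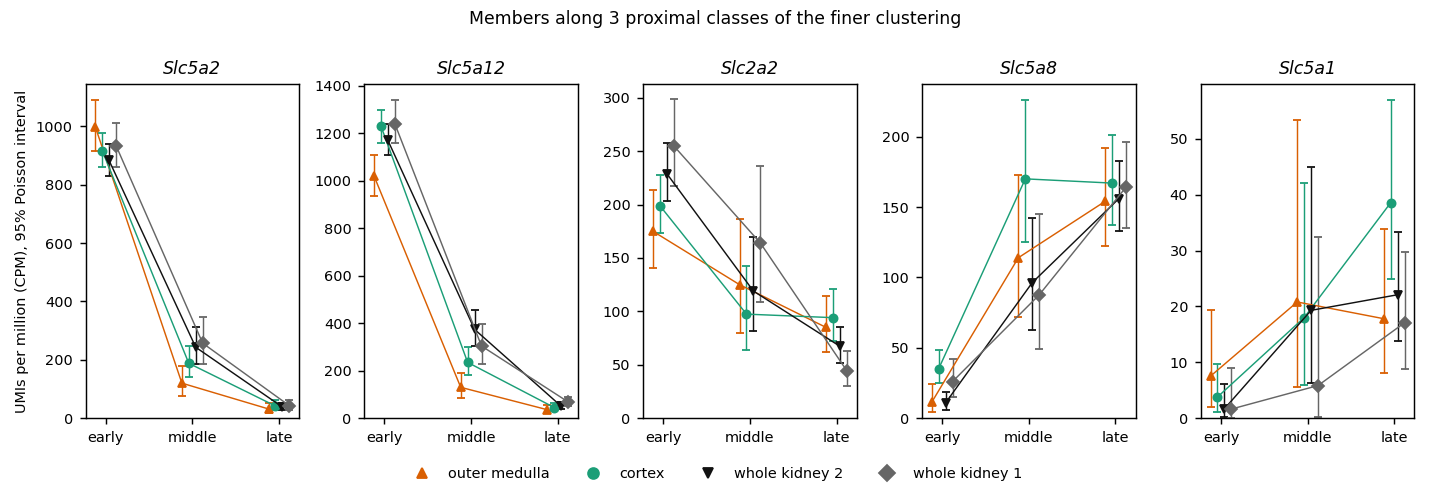
Level in CPM (linear axes that differ between panels) of the 5 members tested in early, middle and late proximal classes of the finer clustering, in 4 libraries. The bars are exact 95% Poisson intervals of the summed UMIs, which cover counting error only. Slc5a2 and Slc5a12 drop to 120 to 374 CPM in middle cells, whereas Slc5a8 is already at 87.6 to 170 CPM there.

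Promoter sequence was held in the RefSeq table (build GRCm38.p6) for 4 of the 7 members, Slc2a2, Slc5a8, Slc5a1 and Slc2a1. Each window of 300 bases runs from 250 bases before to 50 bases after the gene's start. They are shown because these members differed in direction along the proximal tubule or marked other classes. Capitals mark 2 short motifs searched on both strands, which nowhere overlapped each other: AGGTCA or TGACCT (a nuclear receptor half-site) and GGGCGG or CCGCCC (a GC box). A further motif searched, GTTAAT or ATTAAC (a half-site of the factor HNF1), had 0 matches in each of the 4 windows and was present in 7.1% of all promoters.
Slc2a2: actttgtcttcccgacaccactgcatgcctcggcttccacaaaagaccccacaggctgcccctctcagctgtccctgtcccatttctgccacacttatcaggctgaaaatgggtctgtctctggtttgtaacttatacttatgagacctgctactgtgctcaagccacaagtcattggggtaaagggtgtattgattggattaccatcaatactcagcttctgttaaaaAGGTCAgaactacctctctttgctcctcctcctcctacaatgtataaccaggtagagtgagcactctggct
Slc5a8: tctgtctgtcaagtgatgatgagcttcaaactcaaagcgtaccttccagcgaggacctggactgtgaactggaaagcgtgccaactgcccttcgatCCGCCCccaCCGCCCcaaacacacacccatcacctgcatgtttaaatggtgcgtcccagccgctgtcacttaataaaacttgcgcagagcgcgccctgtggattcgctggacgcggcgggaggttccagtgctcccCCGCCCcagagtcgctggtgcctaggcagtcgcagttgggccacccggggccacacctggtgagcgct
Slc5a1: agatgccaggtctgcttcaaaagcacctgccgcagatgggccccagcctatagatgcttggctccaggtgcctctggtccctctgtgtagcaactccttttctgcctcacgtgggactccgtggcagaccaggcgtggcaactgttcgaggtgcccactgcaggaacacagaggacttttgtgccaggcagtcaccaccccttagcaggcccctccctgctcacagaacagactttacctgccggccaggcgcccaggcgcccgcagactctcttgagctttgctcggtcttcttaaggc
Slc2a1: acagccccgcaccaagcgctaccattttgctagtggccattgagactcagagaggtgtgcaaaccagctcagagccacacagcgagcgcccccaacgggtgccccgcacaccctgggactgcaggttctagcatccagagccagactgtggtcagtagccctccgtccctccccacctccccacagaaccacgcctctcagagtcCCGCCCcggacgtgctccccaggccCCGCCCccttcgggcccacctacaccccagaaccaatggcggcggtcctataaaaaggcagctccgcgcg
The Slc2a2 window (chr3:28697653-28697952, plus strand) held 1 AGGTCA at position -21 from the start, a motif found in 16.3% of the 32851 promoters of the table. The Slc5a8 window (chr10:88885742-88886041, plus strand) held 3 copies of CCGCCC at -154, -145 and -18, and that of Slc2a1 (chr4:119108495-119108794, plus strand) held 2 at -45 and -20. A GC box was present in 35.7% of all promoters. The Slc5a1 window (chr5:33103969-33104268, plus strand) held no match to any motif searched. Slc2a2, with 48.0% G and C and 2 CpG dinucleotides, stood apart from the others, which had 60.3% to 65.3% and 10 to 20, against a median of 52.7% G and C over all promoters. A match is a run of letters and not a shown binding site.

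Other classes of the nephron were examined next, in 1 fit of 9 classes by edgeR's quasi-likelihood test, each class against the mean of the other classes. Slc16a7 was higher in distal convoluted tubule-like (adjusted p = 8.6e-18), thick ascending limb-like (1.28e-12), intercalated cell-like (4.78e-07) and connecting tubule-like cells (7.38e-06). Of the 2831 genes tested, 17.1%, 13.2%, 10.1% and 9.04% were called higher in these 4 classes. Slc5a2, Slc5a12 and Slc2a2 were higher in early proximal cells (adjusted p = 4.08e-26, 6.17e-27 and 1.37e-17), where 26.8% of genes were. In late proximal cells Slc2a2 was higher as well (adjusted p = 8.77e-08, with 31.8% of genes called higher), while Slc5a2 and Slc5a12 did not pass the test there (adjusted p = 0.396 and 0.7). The filter of this fit left out Slc5a1, Slc5a8 and Slc2a1.

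Another comparison, added after the data were seen, set the UMIs of a class against those of all other named cells of the same library and held all 7 members. Early and late proximal cells held most UMIs of Slc5a2, Slc5a12, Slc2a2 and Slc5a8, whereas Slc16a7, Slc2a1 and, by level, Slc5a1 stood highest elsewhere. The shares of all tested genes called higher in a class by this comparison were 2.46% for thick ascending limb-like, 7.59% for distal convoluted tubule-like, 4.66% for connecting tubule-like, 5.59% for principal cell-like and 2.66% for intercalated cell-like cells.

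Slc16a7, the proton-coupled high-affinity carrier MCT2, was a gene of the distal nephron. It stood at 555 CPM in distal convoluted tubule-like cells of outer medulla, 426 in cortex, 393 in whole kidney 2 and 549 in whole kidney 1, a mean of 481 ± 83.4 CPM (SD, n = 4 libraries). Summed over these libraries the class held 463 CPM, from 195 UMIs, against 21.8 CPM in all other named cells, a 16.1-fold difference (log2 4.01 ± 0.204, SE, edgeR adjusted p = 9.67e-83, higher in 4 of 4 libraries). Free RNA alone would have given 3.93 of the 195 UMIs.

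Thick ascending limb-like cells, which dilute the urine by salt uptake, followed with 412 CPM in outer medulla, 470 in inner medulla, 121 in cortex, 292 in whole kidney 2 and 320 in whole kidney 1 (323 ± 134 CPM, SD, n = 5). Their sum was 7.07-fold above the other cells (log2 2.82 ± 0.378, SE, edgeR adjusted p = 1.38e-11). Intercalated cell-like cells, which move acid and base in the collecting system, held 227 ± 83.6 CPM (SD, n = 5), and connecting tubule-like cells 157 ± 54.1 CPM (SD, n = 4). Both were higher than the other cells of their library, 3.13-fold (edgeR adjusted p = 0.000155) and 3.18-fold (adjusted p = 6.61e-06), in every library that held them. Neighbouring classes in this order overlapped in their library values.

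Principal cell-like cells had 57.1 ± 68.9 CPM of Slc16a7 (SD, n = 5), with 163 CPM in whole kidney 2 and 0 in inner medulla and whole kidney 1, and did not pass the test against other cells (edgeR adjusted p = 0.0771, log2 -1.24). Single libraries decided this value, which was -2.49 (adjusted p = 0.00129) without whole kidney 2, -1.7 (adjusted p = 0.036) without cortex and -0.0135 (adjusted p = 0.992) without inner medulla. Early proximal cells had 11 UMIs, or 3.21 CPM, in 3429486 UMIs, and late proximal cells 2 UMIs, or 0.521 CPM, in 3839326. In whole libraries, 100% of Slc16a7 UMIs of named and unnamed cells in outer medulla, 97.3% in inner medulla, 96.2% in cortex, 92.9% in whole kidney 2 and 97.9% in whole kidney 1 lay outside the proximal and unnamed classes. Thin limb-like cells gave 0 UMIs in 63555, where 3 counts would be 47.2 CPM.

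Slc5a1 had its highest level in thick ascending limb-like cells and not in the late proximal tubule. It stood there at 122 CPM in outer medulla, 44.1 in inner medulla, 243 in cortex, 73.1 in whole kidney 2 and 91.3 in whole kidney 1, from 13, 3, 8, 2 and 2 UMIs. The lowest of these values lay above the highest late proximal value, 33.4 CPM in cortex, so the library values of the 2 classes did not overlap. The limb values of inner medulla and of whole kidney 1 and 2 rested on 2 or 3 UMIs, where counting error is wide. Limb against late proximal cells was not tested. The limb level was 6.73-fold above that of all other named cells (109 against 11.6 CPM, log2 2.75 ± 0.541, SE, edgeR adjusted p = 1.33e-05, higher in 5 of 5 libraries), and free RNA would have given 1.24 of the 28 UMIs. Late proximal cells came next at 23.4 ± 7.19 CPM (SD, n = 5), and 3.45-fold above all other named cells (edgeR adjusted p = 3.38e-05, higher in 4 of 5). Because proximal cells were many, late proximal cells still held 71.1% of the Slc5a1 UMIs of cortex and 41.9% of those of outer medulla, where all other named classes but the early one also held 41.9%. A UMI of Slc5a1 was seen in 4.68% of 534 thick ascending limb-like cells and in 0.375% of connecting tubule-like cells. No other class mean exceeded 6.42 CPM. Slc5a8 was 11.8-fold higher in late proximal cells than in all other named cells (log2 3.56 ± 0.197, SE, edgeR adjusted p = 5.98e-18, higher in 5 of 5 libraries, with 14.9% of genes called higher in this class). The same comparison turned Slc2a2 round in late cells, at 82.0 CPM against 145 CPM in other named cells (log2 -0.59, edgeR adjusted p = 0.00461, with 20.9% of genes called lower), and those other cells include the early class. This call was lost without whole kidney 2 (-0.42 on the log2 scale, edgeR adjusted p = 0.113) and without whole kidney 1 (-0.416, adjusted p = 0.0682).

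Slc2a1, the general glucose carrier GLUT1, had its highest class mean in principal cell-like cells, the water- and salt-reabsorbing cells of the collecting duct, with 127 ± 63.6 CPM (SD, n = 5). It stood at 133 CPM in outer medulla, 16.6 in inner medulla, 172 in cortex, 163 in whole kidney 2 and 152 in whole kidney 1. The inner medulla value stood apart from the other 4. Against all other named cells the level was 5.68-fold higher (70.2 against 9.67 CPM, log2 2.51 ± 0.509, SE, edgeR adjusted p = 1.45e-05), in 4 of 5 libraries, and 3.41 on the log2 scale without the inner medulla library. Thin limb-like cells came next with a mean of 97.1 CPM, from 2 UMIs (175 CPM) in outer medulla and 1 UMI (19.2 CPM) in inner medulla, so that their values overlap those of principal cell-like cells. Thick ascending limb-like, connecting tubule-like and intercalated cell-like cells held 45.8 ± 35.2 (SD, n = 5), 43.5 ± 28.7 (n = 4) and 38.8 ± 9.77 CPM (n = 5). None of these 4 passed the test (edgeR adjusted p = 0.999, 0.213, 0.0712 and 0.545), though connecting tubule-like cells did so without the cortex library (adjusted p = 0.0439). Slc2a1 was seen in 4.02% of 821 principal cell-like cells and 0.49% of early proximal cells, and its UMIs numbered 35 in principal cell-like cells, of which free RNA would have given 0.684.

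Outside the proximal tubule, Slc5a2 and Slc5a12 stayed close to the level that free RNA alone would give, with Slc5a2 in distal convoluted tubule-like cells as the exception. The free RNA share of each class there was set from proximal markers in that class. Genes of proximal cells therefore come near this level largely by construction, and where their UMIs come from was not tested. Slc5a2 gave 36 UMIs in connecting tubule-like, 16 in thick ascending limb-like and 16 in intercalated cell-like cells, where free RNA would give 33.2, 18.5 and 14.3. Distal convoluted tubule-like cells gave 42 UMIs, where free RNA would give 24.5. For Slc5a12 the counts were 39, 35 and 22 in connecting tubule-like, thick ascending limb-like and intercalated cell-like cells, where free RNA would give 46.6, 25.9 and 20.7. The free RNA profile was read from barcodes with under 100 genes, in which Slc5a2 stood at 316 to 425 CPM outside the inner medulla and at 24.7 CPM there. For proximal cells the free RNA share was taken from the other classes, and was 23.4% in outer medulla. The profile of that library held 107 CPM of Slc16a7, yet its early and late cells gave 0 UMIs of it. In cortex, whole kidney 2 and whole kidney 1 the shares were 24.0%, 27.0% and 26.2%, and the profiles held 51.5, 47.4 and 57.3 CPM of Slc16a7. Early cells there held 2.87, 4.15 and 3.22 CPM and late cells 1.04, 0.796 and 0 CPM. For this gene the estimate was thus too high in proximal cells of these libraries, while inner medulla gave 1 UMI in early cells, too few to judge. Late proximal cells held 63.3 ± 23.3 CPM of Slc5a2 (SD, n = 5), beside class means of 94.8 CPM in connecting tubule-like, 80.5 CPM in intercalated cell-like and 54.7 CPM in thick ascending limb-like cells. Podocyte-like cells of cortex gave 3 UMIs each of Slc2a2 and Slc5a12 in 24 cells, and no other library held 20 such cells.

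**Figure D3:**
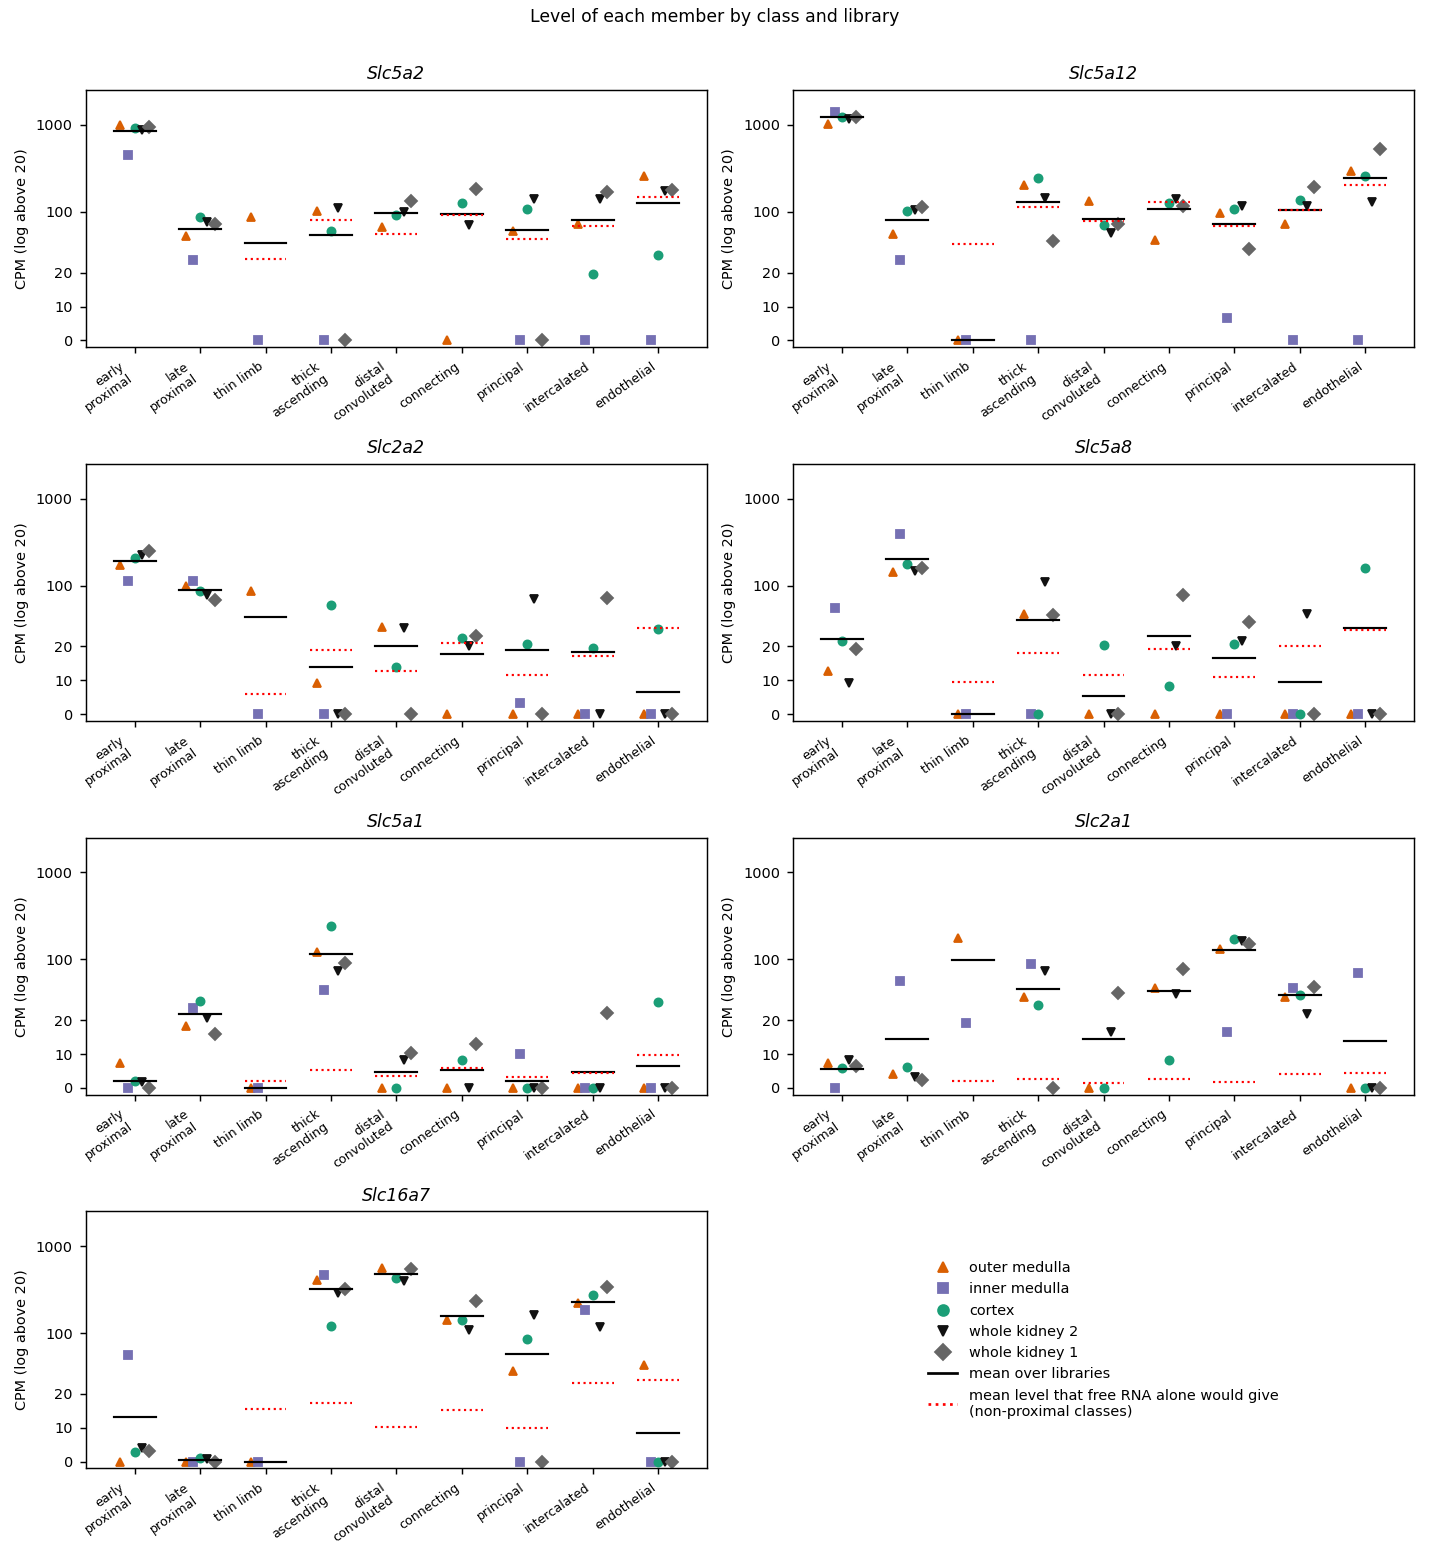
Level of each member by class in CPM (axis linear up to 20 and logarithmic above), with 1 point per library that held at least 20 cells and 5000 UMIs of the class. Black lines are means over libraries. Dotted red lines are the estimated mean free RNA level in non-proximal classes, set from proximal markers. Podocyte-like and stromal cells are not drawn. Slc5a2 and Slc5a12 lie around the red lines outside the proximal tubule, whereas Slc16a7 in the distal classes, Slc5a1 in thick ascending limb-like cells and Slc2a1 in principal cell-like cells sit above them.

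The series asks for differences along the corticomedullary axis, and the members were compared within a class between regions. Each region was 1 library and no test between regions was run; the ranges given are exact 95% intervals of the ratio, cover counting error only, and stand beside the ratio of whole kidney 2 to whole kidney 1. In early proximal cells Slc5a2 was at 998 CPM in outer medulla and 925 CPM in cortex, a ratio of 1.08 (0.969 to 1.2), and Slc5a12 at 1030 and 1240 CPM, a ratio of 0.827 (0.747 to 0.914). The whole kidney ratios were 0.937 (0.846 to 1.04) and 0.952 (0.871 to 1.04). Slc2a2 gave a ratio of 0.835 (0.647 to 1.07) in early and 1.12 (0.80 to 1.55) in late cells, beside whole kidney ratios of 0.907 (0.742 to 1.11) and 1.12 (0.807 to 1.58). Inner medulla held only 29 early cells, in which Slc5a2 was 0.484 times (0.208 to 0.957) and Slc5a12 1.13 times (0.727 to 1.67) its level in cortex, and Slc5a2 0.449 times (0.193 to 0.89) its level in outer medulla. These values of inner medulla moved with the scaling. With TMM factors Slc5a2 over cortex was at -2.18 on the log2 scale, against -1.05 with totals, and Slc5a12 turned round to -0.96. The intervals of Slc5a12 in outer medulla over cortex and of Slc5a2 in inner medulla over either region did not hold 1.

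In late proximal cells Slc5a8 was at 143 CPM in outer medulla and 177 CPM in cortex, a ratio of 0.803 (0.622 to 1.03), close to the whole kidney ratio of 0.927 (0.74 to 1.17). In the 60 late cells of inner medulla it was at 391 CPM from 14 UMIs, 2.21 times (1.18 to 3.8) the level in cortex, which is 1.14 on the log2 scale, and 0.304 with TMM factors in place of totals. Slc5a1 was at 18.2 CPM in outer medulla and 33.4 CPM in cortex, a ratio of 0.544 (0.262 to 1.07), beside a whole kidney ratio of 1.34 (0.679 to 2.77). The early carriers Slc5a2 and Slc5a12, low in late cells, gave 0.605 (0.401 to 0.898) and 0.546 (0.368 to 0.797) for outer medulla over cortex. Their whole kidney ratios were 1.05 (0.755 to 1.47) and 0.918 (0.703 to 1.2). Late cells of inner medulla numbered few beside its other classes, and their origin along the tubule was not tested.

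Slc16a7, Slc5a1 and Slc2a1 were compared in the same way in distal classes. Slc16a7 in thick ascending limb-like cells was at 412 CPM in outer medulla and 470 CPM in inner medulla, against 121 CPM in cortex, ratios of 3.39 (1.23 to 13.0) and 3.88 (1.37 to 15.1), with 4 UMIs behind the cortical value. The whole kidney ratio was 0.915 (0.29 to 2.96). Slc5a1 in the same class ran the other way, at 122 and 44.1 CPM in outer and inner medulla against 243 CPM in cortex, ratios of 0.501 (0.192 to 1.39) and 0.182 (0.031 to 0.757). In distal convoluted tubule-like cells Slc16a7 was at 555 CPM in outer medulla and 426 CPM in cortex, a ratio of 1.30 (0.825 to 2.02). The whole kidney ratio there was 0.717 (0.475 to 1.08).

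Slc2a1 in principal cell-like cells was at 16.6 CPM in inner medulla, from 5 UMIs in 474 cells, against 172 CPM in cortex, from 8 UMIs in 65 cells, a ratio of 0.0965 (0.0248 to 0.335). Against outer medulla, with 133 CPM from 11 UMIs in 166 cells, the ratio was 0.125 (0.034 to 0.39). Outer medulla over cortex gave 0.774 (0.283 to 2.22) and whole kidney 2 over whole kidney 1 gave 1.08 (0.274 to 5.02). The difference lay between the inner medulla and each of the other 2 regions. Of the principal cell-like cells of the inner medulla most fell in a cluster led by Aqp4 and Plet1, and those of the other libraries in a cluster led by Hsd11b2 and Aqp3. The first cluster held 426 cells over all libraries, so part of the 474 cells of inner medulla lay in the second. Region and cluster thus went together in large part but not fully. Regions were not compared within a cluster.

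**Figure D4:**
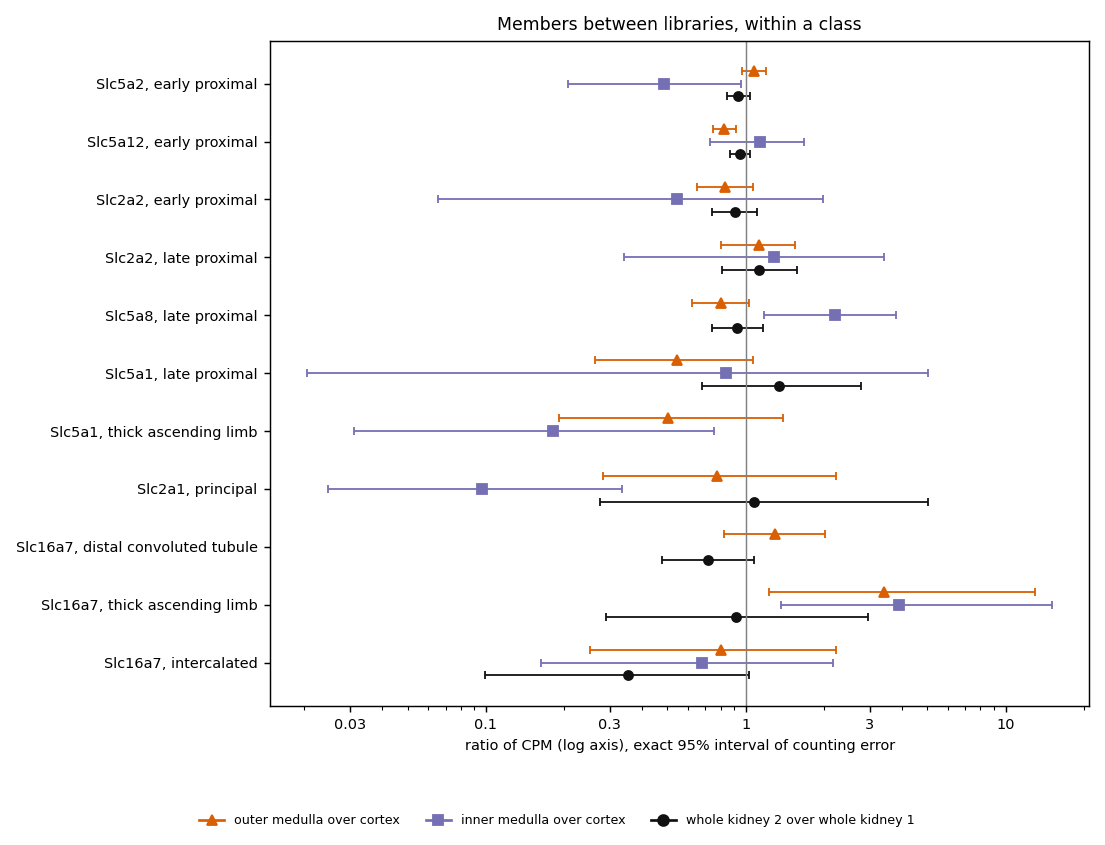
Ratio of CPM between libraries within a class, for selected pairs of a member and a class, with at least 8 UMIs in the pair (logarithmic axis, bars are exact 95% intervals of counting error). Triangles are outer medulla over cortex, squares inner medulla over cortex and circles whole kidney 2 over whole kidney 1. Ratios of 0 are not drawn. The bars of inner medulla over cortex lie below 1 for Slc2a1 in principal cell-like cells (0.0248 to 0.335) and Slc5a1 in thick ascending limb-like cells (0.031 to 0.757), and both bars of Slc16a7 in thick ascending limb-like cells lie above 1.

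Over all cells of a library, whose mix of classes differs between regions, Slc5a2 was at 414 CPM in outer medulla and 23.2 CPM in inner medulla, against 457 CPM in cortex. Slc16a7 was at 52.7 and 71.4 CPM in outer and inner medulla against 40.7 CPM in cortex, and Slc2a1 at 17.2 and 30.9 CPM against 9.38 CPM. In whole kidney 2 and whole kidney 1 these genes stood at 426 and 395 CPM (Slc5a2), 29.5 and 51.5 CPM (Slc16a7) and 10.8 and 12 CPM (Slc2a1).

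Related genes were counted from lists chosen by function. Of 15 other hexose transporters 14 were listed and 5 passed the filter in the early against late comparison. Of all 6280 genes tested there, 18.2% were called higher and 18.0% lower in early cells. Slc5a9 (a sodium-coupled mannose and glucose carrier) and Slc2a5 (the fructose carrier GLUT5) were higher in early cells, at 27.1 and 63.0 CPM against 6.77 and 28.7 CPM in late cells (log2 1.89 ± 0.341 and 0.99 ± 0.197, SE, edgeR adjusted p = 2.71e-07 and 4.56e-06, each in 4 of 5 libraries). Slc5a10, a sodium-coupled mannose and fructose carrier, was lower in early cells in all 5 libraries, at 7.0 CPM against 82.3 CPM in late cells (-3.64 ± 0.253, SE, adjusted p = 4.04e-45). The median of the 5 was 0.595 on the log2 scale, beside 0.0133 over all genes tested. Slc50a1 reached a mean of 144 CPM in endothelial cell-like cells and Slc2a8 reached 179 CPM in the podocyte-like cells of cortex.

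Of 15 other monocarboxylate carriers and chaperones 9 were tested, with 3 higher and 3 lower in early cells, beside 18.2% and 18.0% of all genes tested. Their median was -0.09 on the log2 scale. Slc16a10, an aromatic amino acid carrier, was the most different, at 104 CPM in early and 23.4 CPM in late cells (2.10 ± 0.181, SE, edgeR adjusted p = 1.74e-29). Slc16a1, which encodes the lactate carrier MCT1, was at 42.9 CPM in early and 15.4 CPM in late cells (1.49 ± 0.255, SE, adjusted p = 4.78e-08), and Slc16a12 at 220 and 132 CPM (0.65 ± 0.105, adjusted p = 6.14e-09). Slc16a4, Slc16a9 and Slc16a11 had log2 fold changes of -0.78, -0.55 and -0.90 (edgeR adjusted p = 1.78e-06, 6.4e-07 and 0.00296), and early cells were lower in 5, 5 and 3 of 5 libraries. Emb, which encodes embigin, known in rat as a chaperone of MCT2, had a mean of 0.358 CPM in early proximal cells, 587 ± 272 CPM in intercalated cell-like (SD, n = 5), 237 ± 127 CPM in thick ascending limb-like (n = 5) and 120 ± 43.9 CPM in distal convoluted tubule-like cells (n = 4). These are 3 of the 4 classes in which Slc16a7 was called higher, and connecting tubule-like cells, the fourth, had 28.1 ± 44.3 CPM of Emb (n = 4). Bsg, the chaperone of MCT1, was at 606 CPM in early and 595 CPM in late cells and did not pass the test (-0.09 ± 0.0721, SE, edgeR adjusted p = 0.35).

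Among 12 partners and regulators, 10 were tested, 4 were higher and 2 lower in early cells, beside 18.2% and 18.0% of all genes tested. Pdzk1ip1, whose product MAP17 is needed for SGLT2 activity, was at 2930 CPM in early and 1500 CPM in late cells (0.90 ± 0.0644, SE, on the log2 scale, edgeR adjusted p = 4.7e-42), and its highest class mean was in principal cell-like cells at 4610 CPM. The scaffold gene Pdzk1 and the transcription factor genes Hnf4a and Ppara were higher by 0.45, 0.38 and 0.69 on the log2 scale, whereas the scaffold gene Slc9a3r1 was among the lower ones, at -0.31. The median of the 10 was 0.289. Txnip, whose product restrains glucose uptake, was at 18.4 CPM in early and 24.2 CPM in late cells and at a mean of 591 CPM in principal cell-like cells.

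Of 13 enzymes of glucose and lactate, 8 were tested, with 5 higher and 1 lower in early cells, beside 18.2% and 18.0% of all genes tested. Their median was 0.42 on the log2 scale. The higher ones included G6pc, which releases free glucose (383 CPM in early and 228 CPM in late cells), Fbp1 (1820 and 1180 CPM), Pcx (146 and 97.9 CPM) and Ldhb (1570 and 1120 CPM). Log2 fold changes of these 4 ran between 0.387 and 0.659. Ldhd, which oxidises D-lactate, was lower at 189 CPM in early and 467 CPM in late cells (-1.37 ± 0.0875, SE, edgeR adjusted p = 4.23e-53). Pkm and Hk1, genes of glucose use, were low in proximal cells, whereas Ldha of the same list averaged 531 CPM in early and 361 CPM in late cells. Pkm, a pyruvate kinase gene, gave 7.58 CPM in early and 4.95 CPM in late cells and averaged 716 ± 93.9 CPM in distal convoluted tubule-like cells (SD, n = 4), where Slc16a7 was highest. Hk1 gave 1.46 and 0 CPM in early and late cells and 106 ± 59.6 CPM in thick ascending limb-like cells (SD, n = 5).

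The genes most like each member were taken from 6067 genes by Pearson correlation of log2(CPM + 10) over 41 sums of 10 classes, as a description, since sums of a library share its depth and free RNA. They were Maf (0.862), Spp2 (0.846) and Gatm (0.812) for Slc5a2, and Gatm (0.905), Spp2 (0.888) and Nox4 (0.868) for Slc5a12. For Slc5a8 they were Akr1c14 (0.832), Rdh16 (0.714) and Eci3 (0.71), and for Slc2a2 Acnat1 (0.739), Slc13a1 (0.728) and Slc7a9 (0.727). Slc5a1 was nearest to Tmem207 (0.725), Cldn10 (0.685) and Smyd4 (0.682), the first 2 of which were among the thick ascending limb markers. Slc2a1 was nearest to Mal2 (0.733), Sim1 (0.721) and Dek (0.72). Slc16a7 was nearest to Atp5j (0.862), Slc25a3 (0.837) and Cox7b (0.831), which serve mitochondrial energy supply. Only the 2 early brush border carriers shared leading genes, Gatm and Spp2. Both of these genes, and Slc7a9, were among the early proximal markers used to name the classes.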

How the data were processed

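Drop-seq libraries of mouse kidney were used: 1 of outer medulla, 1 of inner medulla, 1 of cortex and 2 of whole kidney. The authors deposited 1 table of raw UMI counts per gene and barcode for each library, per the file headers, and every listed barcode had at least 50 detected genes. The submitters' processing notes name mm9 and Seurat 2.3.1, with neither aligner nor counting tool given in the sources used here. Barcodes with at least 200 detected genes held 520663 to 2886013 UMIs per library, and libraries shared 0 or 1 such barcodes per pair. Scrublet marked 24 of 12121 cells (0.198%) as doublets, a share too low for the caller to have worked, and 12097 cells were kept.

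Cells were clustered with scanpy 1.11.5 and leidenalg 0.10.2 (2000 variable genes without the 7 members, 30 principal components, 15 neighbours, resolution 1) and clusters were named from marker lists. UMIs were summed per class and library, and sums of at least 20 cells and 5000 UMIs were used. CPM is the summed UMIs of a gene per 1000000 UMIs of that sum. Sums were tested with edgeR 4.0.16 (limma 3.58.1, R 4.3.3, TMM scaling, filterByExpr, quasi-likelihood test, Benjamini-Hochberg adjustment over all genes tested, threshold 0.05) with the library as a block, since early and late cells of 1 library come from the same preparation. Free RNA was estimated from barcodes with under 100 genes, and its share in a class from proximal markers in that class. For proximal cells the share was that of the non-proximal classes of the same library. Poisson, binomial (Clopper-Pearson) and ratio intervals are exact at 95% and cover counting error only, and 3 counts were taken as the limit of a count of 0. Shares of cells were also computed after thinning to 300 UMIs. The early against late test was also run on simulated counts, which held neither library effects nor free RNA, so no conclusion about these data is drawn from it.

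The members, gene lists and markers were chosen with earlier results of these data known. Members are named throughout. A few list genes are counted but not reported here by name. Genes of 4 lists by function are named where they passed the early against late test or reached a class mean of 100 CPM, and the 3 genes most correlated with each member among genes with at least 100 CPM in 1 sum and 100 UMIs in all. Alternatives were other scaling, DESeq2 1.42.0, no filter, no block, each library left out, at least 500 genes per cell, other clusterings and doublet removal, and free RNA subtraction.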

Additional observations from a re-analysis of the deposited data

Results flagged for a closer look

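The cluster of 466 cells that could not be named stood outside all comparisons, and 6 of the 7 members were above the limit that a count of 0 allows there, 8.86 CPM over its 338723 UMIs. Slc5a12 was at 806 CPM and Slc5a2 at 765 CPM, which lies below the early proximal levels of 1180 and 922 CPM and above the late levels of 96.6 and 73.2 CPM. Slc2a2 was at 186 CPM, Slc5a8 at 26.6 CPM, Slc5a1 at 14.8 CPM from 5 UMIs and Slc2a1 at 11.8 CPM from 4 UMIs, and Slc16a7 gave 0 UMIs. Over 4 libraries Slc5a2 ran between 623 and 817 CPM and Slc5a12 between 600 and 1030 CPM. The cluster was led by H2-Aa, Cd74 and H2-Ab1, genes of antigen presentation, and what cells it holds was not tested.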

How the results depend on the processing

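Between early and late proximal cells, Slc5a2, Slc5a12, Slc2a2, Slc5a8 and Slc5a1 kept their direction and an adjusted p below the threshold under every alternative that could be fitted, with adjusted p up to 1.51e-05. Slc5a1 could be tested in 14 settings, the main one included, and the others in 16. The settings of at least 500 genes per cell and of cells split by marker score held 4 libraries. Without free RNA subtraction the log2 fold changes ran from 3.43 to 4.46 for Slc5a2, 3.41 to 4.44 for Slc5a12, 1.13 to 1.47 for Slc2a2, -3.6 to -2.9 for Slc5a8 and -4.12 to -2.94 for Slc5a1. Genes called numbered 2271, 1607 by DESeq2, 2560 with no filter and 1627 to 2578 with 1 library left out. With no replicate block, so that the pairing of early and late sums within a library was dropped, 1596 genes were called and no member was lost. In the fit of 9 classes 6626 calls were made, 12050 with no filter on low counts and 4674 to 6510 with 1 library left out. Set against all other named cells, Slc2a2 in late proximal cells reversed to -0.594 on the log2 scale, a comparison whose other cells include the early class, and lost this call without whole kidney 2 (edgeR adjusted p = 0.113) or whole kidney 1 (adjusted p = 0.0682). Among recomputed ratios between regions, 99 moved by less than their counting interval and 4 by more. Ratios that rested on few UMIs were not recomputed. These included Slc2a1 in principal cell-like cells (5 UMIs in inner medulla, 8 in cortex and 11 in outer medulla). Slc5a1 in thick ascending limb-like cells of inner medulla over cortex (3 and 8 UMIs) was left out as well, so the dependence of these ratios on scaling is not known. Those 4 on the log2 scale were -0.713 for late Slc5a8 (outer medulla over cortex) and -1.18 for Slc16a7 in distal convoluted tubule-like cells (whole kidney 2 over 1), both in cells of at least 500 genes, and -0.96 and -0.654 for early Slc5a12 in inner medulla over cortex and over outer medulla with TMM factors. TMM factors also took late Slc5a8 in inner medulla over cortex to 0.304, against 1.14, and early Slc5a2 to -2.18, moves of over 1.5 times that stayed inside wide intervals. Depth limits Slc5a1, Slc2a1 and Slc16a7 most, which gave few UMIs per class and library, and thinning cells to 300 UMIs moved 34 of 36 shares of cells beyond their interval.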

Other observations

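Some genes of the fixed lists were highest outside the tubule segments described above. Slc9a3r2, a scaffold gene related to Slc9a3r1, averaged 1040 CPM in endothelial cell-like cells and 4.82 CPM in early proximal cells. Txnip averaged 471 ± 203 CPM in endothelial cell-like cells (SD, n = 5), next to 591 ± 299 CPM in principal cell-like cells (SD, n = 5). Among enzymes, Ldhb, a lactate dehydrogenase subunit gene, had its highest class mean in distal convoluted tubule-like cells at 3670 CPM, against 1470 CPM in early proximal cells. Ldha, the gene of the other subunit, reached 820 CPM in thin limb-like cells. These levels are means over libraries and were given no test between classes.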
